A study of Sus scrofa with 4 samples.

Results

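The contractile cytoskeleton genes of the smooth muscle type were followed in porcine intramuscular preadipocytes (PIP), an established cell line, and in the mature adipocytes (pMA) made from it. The members were 10 genes chosen by name: ACTA2, TAGLN, MYL9, CNN1, TPM1, TPM2, CALD1, ACTN1, VIM and DES. Every non-control probe that carried one of these gene names was used, which gave 45 of 43603 probes and 9 of 34853 gene names. TAGLN had no probe under its name, and no probe listed 1 of its 3 RefSeq transcripts, so it was not measured here. The other 9 genes had 7 (ACTA2), 1 (MYL9), 2 (CNN1), 21 (TPM1), 5 (TPM2), 2 (CALD1), 2 (ACTN1), 1 (VIM) and 4 (DES) probes.

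The study had 4 conditions, each with 1 array. PIP were grown without differentiation or stimulation. The medium of all 4 groups held 10% serum. The pMA had been kept for 4 days in differentiation medium with 50 ng/ml insulin, 0.25 μM dexamethasone, 2 mM octanoate and 200 μM oleate, so these agents had been given to all 3 adipocyte groups and not to PIP. One pMA group was left unstimulated, one received serotonin for 12 hours, at a dose that the methods write as 100 μM and the labels as 100 μM per ml, and one received 2.5 µg/ml TNF-α for 12 hours. RNA was pooled within a group before labelling according to the methods, so the differences have no replicate check, and p-values are not given.

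Smooth-muscle actin, encoded by ACTA2, forms thin filaments that slide along myosin, and tropomyosins, calponin and caldesmon lie along these filaments and control that movement. Alpha-actinin joins the filaments at their anchorage points, while vimentin and desmin build the intermediate filaments that hold the cell's shape. Fibroblast-like cells carry these proteins in stress fibers, many of their genes are targets of serum response factor, and preadipocytes are known to take their actin stress fibers apart as they round up into adipocytes.

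Levels are given as log2 intensity relative to the 75th percentile of the array, so 0 is the intensity that 75% of the probes did not exceed. A difference between arrays is given as a log2 ratio, in which -1 is a 2-fold fall. A gene was called when it differed at least 2-fold, the cutoff of the methods, and the probe brightest on average across the 4 arrays stood for the gene. The member probes were well above background in 44 of 45 cases in PIP and after serotonin, and in all 45 in unstimulated pMA and after TNF-α. None was saturated on any array. Over all probes 56.5% to 66.0% were well above background per array. The error that the scanner software gave for the log2 ratio of a member's representative probe was 0.20, and it was larger for the dimmer DES probes. Spots of 1 probe repeated within an array gave 0.19 for a ratio. Both cover technical noise within arrays and not the spread between cultures. In such bulk RNA, fewer cells of a type and less RNA per cell cannot be told apart.

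Because several genes were read by many probes, the probes themselves carry part of the result. All are 60 bases long and are written 5′ to 3′ as deposited, each named by the first base it covers in its target transcript.
The ACTA2 probe nearest the start of the transcript is shown because it had the strongest fall of the 7. It shared no run of 20 letters with a probe of any other gene name, which does not show that it binds no other message.
ACTA2 base 211: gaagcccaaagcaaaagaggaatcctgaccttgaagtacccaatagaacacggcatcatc
The next set comes from TPM1, where the log2 ratio between pMA and PIP differed between neighbouring probes. Capitals mark the run of 23 letters that all 3 share.
TPM1 base 797: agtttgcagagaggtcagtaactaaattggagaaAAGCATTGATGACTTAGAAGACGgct
TPM1 base 828: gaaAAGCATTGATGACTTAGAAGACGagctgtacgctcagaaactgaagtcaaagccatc
TPM1 base 831: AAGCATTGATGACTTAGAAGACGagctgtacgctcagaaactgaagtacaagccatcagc
The 2 TPM1 probes nearest the start of the transcript showed a like difference between neighbours.
TPM1 base 217: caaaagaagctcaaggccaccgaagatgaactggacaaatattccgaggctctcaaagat
TPM1 base 330: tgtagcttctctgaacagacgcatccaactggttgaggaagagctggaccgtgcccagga
Both tropomyosin genes are shown with a probe each from a like place in the transcript, and the longest run that this pair shares, in capitals, is 11 letters.
TPM1 base 734: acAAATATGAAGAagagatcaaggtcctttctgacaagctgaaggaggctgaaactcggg
TPM2 base 744: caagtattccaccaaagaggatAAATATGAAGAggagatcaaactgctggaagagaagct
For DES, 2 probes that overlap by the 21 letters in capitals gave like ratios, which differed from that of the brightest DES probe.
DES base 1336: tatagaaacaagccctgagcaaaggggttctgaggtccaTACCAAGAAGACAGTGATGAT
DES base 1372: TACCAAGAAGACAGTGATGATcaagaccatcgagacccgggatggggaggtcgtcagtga
Of the 45 member probes, 26 shared a run of at least 20 letters with another probe of the same gene, so probes of a gene are not independent readings. Only 2 shared such a run with a probe of another name, 1 ACTA2 probe and the TPM2 probe at base 195.

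After serotonin, 6 of the 9 genes fell at least 2-fold and none rose that far. CNN1, TPM1, MYL9, TPM2, DES and ACTN1 passed the cutoff, and ACTA2, CALD1 and VIM did not on their brightest probe. Among all 19093 gene names with a ratio, 4.74% fell and 2.08% rose at least 2-fold, or 3.49% and 3.09% when the arrays were scaled to spike-in controls. The 9 genes had a median log2 ratio of -1.02, against 0.01 over all gene names. All 9 ratios were below 0, as were 48.9% of all gene names. Over single probes, 38 of 45 fell at least 2-fold, against 4.81% of all probes, and all 45 were below 0, against 47.8%. Each of the 9 genes had its lowest level of the 4 arrays after serotonin, as did all 44 member probes that were well above background on every array. The same held for 24.8% of the gene names and 25.6% of the probes. VIM was only 0.06 below its PIP level there, less than the scanner error. The count depended on the scaling: it was 8 of 9 after quantile normalization, without VIM, and 7 of 9 after scaling to spike-in controls, without VIM and CALD1, where 11.9% of gene names were lowest after serotonin.

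**Figure D1:**
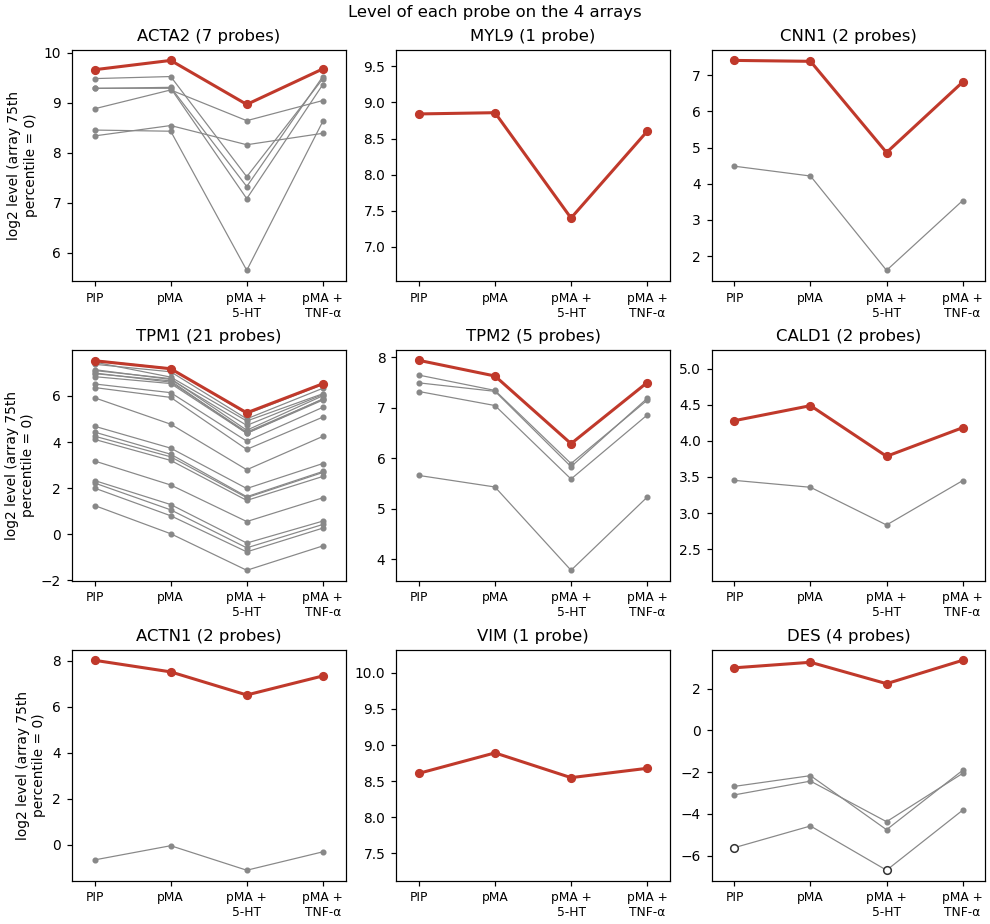
Level of every member probe on the 4 arrays, 1 panel per gene, as log2 intensity with the array's 75th percentile at 0. Each line joins the values of 1 probe on 1 array per condition; the red line is the probe that represents the gene, and open circles are not well above background. With this scaling the lowest value of the red line is that of pMA after serotonin in all 9 panels, but not for VIM after quantile normalization or for VIM and CALD1 after scaling to spike-in controls. CNN1 is an example, with 4.87 against 6.81 to 7.41 on the other arrays.

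CNN1, calponin, a protein that binds actin and slows the myosin motor, had the largest fall of the 9 genes. Its level was 7.41 in PIP, 7.39 in unstimulated pMA, 4.87 after serotonin and 6.81 after TNF-α. The serotonin array thus stood apart from the other 3, and the ratio to unstimulated pMA was -2.52, a 5.74-fold fall. The other CNN1 probe, at base 1151, gave -2.61.

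MYL9, the regulatory light chain of smooth muscle and nonmuscle myosin, was read by 1 probe. Its level was 8.84 in PIP, 8.86 in pMA, 7.40 after serotonin and 8.60 after TNF-α. Here too only the serotonin array was low, with a log2 ratio of -1.46 or a 2.75-fold fall.

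TPM1, alpha-tropomyosin, stood at 7.53 in PIP, 7.18 in pMA, 5.27 after serotonin and 6.53 after TNF-α on its brightest probe. The levels on PIP and pMA were the highest and that after serotonin the lowest, a 3.76-fold fall from pMA. All 21 TPM1 probes fell at least 2-fold, with log2 ratios from -2.28 to -1.57. TPM2, beta-tropomyosin, was 7.94 in PIP, 7.63 in pMA, 6.28 after serotonin and 7.49 after TNF-α. Its fall was smaller than that of TPM1, 2.53-fold, and its 5 probes lay close together, from -1.65 to -1.34. The ranges of the TPM1 and TPM2 probes overlapped only between -1.65 and -1.57.

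ACTN1, the alpha-actinin of nonmuscle cells, was 8.02 in PIP, 7.52 in pMA, 6.52 after serotonin and 7.34 after TNF-α. The fall after serotonin was 2.00-fold, just past the cutoff, and its other probe gave -1.07. DES, desmin, was 2.998 in PIP, 3.26 in pMA, 2.24 after serotonin and 3.36 after TNF-α. Its fall was 2.03-fold on this probe, also close to the cutoff. The overlapping DES probes at bases 1336 and 1372 fell farther, by log2 ratios of -2.59 and -1.94. They were much less bright, with -2.17 and -2.43 in pMA and -4.75 and -4.37 after serotonin. Their scanner errors were larger too, 0.34 and 0.31. The probe at base 739, dim after serotonin, gave -0.55 as a lower bound of its fall, with a scanner error of 0.94. The calls of ACTN1 and DES were lost under scaling to the median, scaling to spike-in controls and normexp background correction, and that of ACTN1 also under quantile normalization, whereas CNN1, TPM1, MYL9 and TPM2 stayed at or below -1.16 in all settings tried.

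CALD1, caldesmon, an actin-binding inhibitor of the myosin motor, was 4.28 in PIP, 4.49 in pMA, 3.79 after serotonin and 4.18 after TNF-α. The log2 ratio after serotonin was -0.70 on this probe and -0.52 on the other, short of the cutoff. VIM, vimentin, the intermediate filament protein of mesenchymal cells, was 8.61 in PIP, 8.89 in pMA, 8.55 after serotonin and 8.68 after TNF-α. Its levels covered a narrow range, and its log2 ratio after serotonin, -0.34, was the smallest of the 9 in size.

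**Figure D2:**
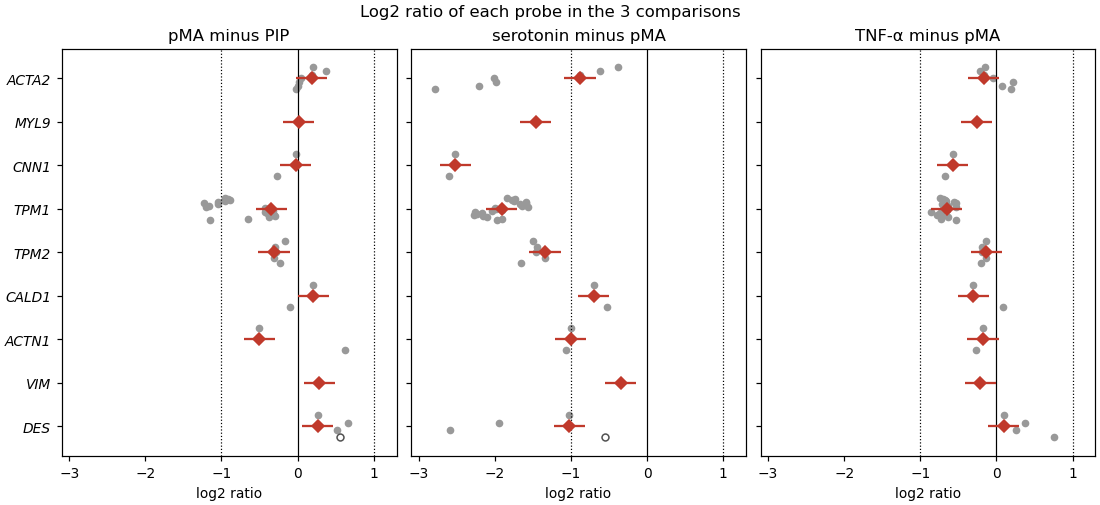
Log2 ratio of every member probe in the 3 comparisons (x axis), 1 row per gene. Grey points are single probes, open circles lower bounds of the change, and red diamonds the probe that represents the gene with the scanner error of about 0.20. Dotted lines mark 2-fold, and after serotonin all points lie left of 0, from -2.78 to -0.34.

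ACTA2 gave different answers at different probes. The probe that represents it, at base 1349, was 9.67 in PIP, 9.85 in pMA, 8.97 after serotonin and 9.68 after TNF-α. Its log2 ratio after serotonin was -0.88. The probe at base 211 was 8.46 in PIP, 8.43 in pMA, 5.65 after serotonin and 8.63 after TNF-α, a ratio of -2.78. The first was thus just short of 2-fold, and the second showed the largest fall among all 45 member probes. The probes at bases 593, 880 and 903, like that at 211 designed on the RefSeq transcript, gave -2.21, -1.99 and -2.01. The probes at bases 1437 and 1462, like that at 1349 designed on an Ensembl transcript, gave -0.62 and -0.38. In all, 4 of 7 ACTA2 probes fell at least 2-fold and 3 did not, and no value lay between -1.99 and -0.88. With the median over the probes of a gene in place of the brightest, ACTA2 was at -1.99 and 7 members passed. The 7 probes differed far less in the other comparisons, from -0.02 to 0.38 between pMA and PIP and from -0.21 to 0.22 after TNF-α. None of the 7 was dim or saturated on any array.

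**Figure D3:**
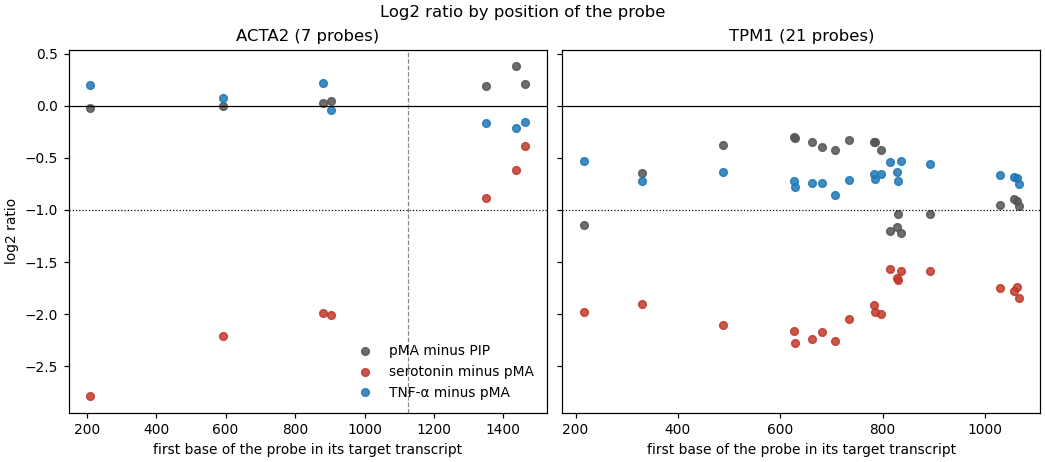
Log2 ratio (y axis) of the 7 ACTA2 and 21 TPM1 probes against the first base that each covers in its target transcript (x axis), with 1 point per probe and comparison. The dashed line separates the 4 ACTA2 probes designed on a RefSeq transcript from the 3 designed on an Ensembl transcript, whose bases are counted separately. After serotonin (red) the first 4 lie between -2.78 and -1.99 and the other 3 between -0.88 and -0.38.

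The split in ACTA2 was set beside genes read by 2 or more probes on 1 transcript with starts at least 500 bases apart. Over 1879 such transcripts, the upstream ratio minus the downstream ratio after serotonin had a median of 0.03 and quartiles of -0.12 and 0.22, and it was below -1 in 0.958%. Each pair lies on 1 transcript, whereas the split in ACTA2 lies between a RefSeq and an Ensembl transcript. These values therefore cannot bear on that split. Within the RefSeq transcript of ACTA2 the difference between bases 211 and 903 was -0.78. In DES it was -1.56 between bases 1336 and 2189, and it was -0.06 in ACTN1, -0.13 in TPM1 and -0.16 in TPM2. Among other actin genes this difference was -1.32 in ACTB, -0.82 in ACTA1 and 1.23 in ACTC1. Whether the ACTA2 probes read different transcripts, or related actin messages as well, was not tested.

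The other actins were read because their sequences are close to that of ACTA2. ACTC1, cardiac actin, fell at least 2-fold after serotonin at all 3 probes, from -3.26 to -2.03. ACTA1 had 16 probes, 11 of them with a ratio after serotonin, and 9 of these fell at least 2-fold. The 9 were those at bases 230 to 1023, from -2.63 to -1.08, whereas the probes at bases 1232 and 1328 gave -0.60, a lower bound of the fall, and -0.26. ACTB, cytoplasmic beta-actin, gave -1.71 at base 439 and -0.39, -0.30 and -0.29 at bases 1702, 1858 and 1894. The other 5 ACTA1 probes, between bases 1217 and 1415, had no ratio because they were dim in both groups, and the 2 ACTA1 probes nearest the start, with -1.08 and -1.36, fell less than most of those up to base 1023, so that the ACTA1 values showed no steady change along the transcript. The most upstream ACTB probe had the largest fall of its gene, while the largest fall of ACTC1 was at its most downstream probe. No run of more than 26 letters was shared between an ACTA2 probe and a probe of these genes. Probes were compared with probes only and not with whole messages, so this cannot show which messages a probe binds. The contribution of one actin's message to the probes of another was not tested.

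The comparison of pMA with PIP describes how these genes differed after differentiation. Effects of differentiation, of the agents in its medium and of time in culture cannot be told apart here. None of the 9 differed at least 2-fold between pMA and PIP, against 9.92% of gene names that were higher and 3.56% that were lower by that much. Those shares were 4.5% and 8.69% after scaling to the median, 5.58% and 4.63% after quantile normalization, and 24.2% and 1.59% after scaling to spike-in controls, and no member passed 2-fold under any of them. The log2 ratios lay between -0.50 (ACTN1) and 0.28 (VIM), with a median of 0.02. VIM, DES (0.26), CALD1 (0.21), ACTA2 (0.19) and MYL9 (0.02) were above 0. CNN1 (-0.03), TPM2 (-0.31), TPM1 (-0.35) and ACTN1 were the 4 below 0, as were 42% of all gene names. The median over all gene names was 0.12 in this comparison, and relative to it the members' median was -0.11. Signs of such small ratios followed the scaling: 9 of 9 were below 0 after scaling to the median and 1 of 9 after scaling to spike-in controls, where the median of all gene names was -0.22 and 0.56. Relative to that median the members' median was -0.11 and -0.12.

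Probes of the same gene disagreed most in ACTN1 and TPM1 here. The 2 ACTN1 probes lay on opposite sides of 0, with 0.62 at base 742 and -0.50 at base 3095. Their levels in pMA were -0.04 and 7.52. The TPM1 probes spanned a somewhat narrower range. The 11 TPM1 probes at bases 330 to 797 gave -0.65 to -0.30. The 5 at bases 815 to 893 gave -1.22 to -1.04, and the 4 at bases 1029 to 1066 gave -0.96 to -0.89. The probe at base 217 gave -1.15. So all 21 probes were below 0, 6 of them at least 2-fold, against 4.02% of all probes, and these 6 were the first probe and those at bases 815 to 893. The stretches were chosen after the values were seen. The probes at bases 797 and 828 share the run printed above, yet gave -0.43 and -1.16. They also differed widely in brightness, with levels of 6.72 and 1.06 in pMA. The pMA levels were 5.94 to 7.20 at bases 330 to 797 and 0.02 to 2.14 at bases 815 to 893. After serotonin the order of the stretches was the other way round, with a median of -2.10 at bases 330 to 797 and -1.59 at bases 815 to 893, and after TNF-α the medians were -0.72 and -0.55. Tropomyosin genes are known to make many proteins by the use of alternative exons, at both ends among other places, but which transcripts these probes read was not tested. The 4 DES probes all lay above 0, from 0.26 to 0.66, the one at base 739 being a lower bound because it was not well above background in PIP.

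The unstimulated pMA array served as the control of TNF-α as well as of serotonin, so a chance deviation of that array enters both comparisons. After TNF-α none of the 9 genes changed at least 2-fold, against 2.21% of gene names that rose and 1.34% that fell, or 2.23% and 2.29% after quantile normalization and 2.69% and 0.813% after scaling to spike-in controls. The median log2 ratio of the 9 was -0.21, against 0.01 over all gene names. Of the 9 ratios 8 were below 0, against 49.2% of gene names. After quantile normalization 7 of the 9 were below 0, with ACTA2 at 0.05. TPM1 (-0.65) and CNN1 (-0.58) were farthest from 0, and all 21 TPM1 probes lay between -0.86 and -0.53. CALD1 was at -0.31, with 0.09 at its other probe. MYL9 was at -0.26, VIM at -0.21, ACTN1 at -0.18, ACTA2 at -0.17 and TPM2 at -0.13. DES, at 0.09, was the exception, and its other 3 probes gave 0.25 to 0.75. Of the 9 ratios, 5 exceeded the scanner error of 0.20 in size. Over single probes 37 of 45 were below 0 after TNF-α, against 49.8% of all probes, and none passed 2-fold in either direction, against 3.52% of all probes. Set side by side, serotonin and TNF-α gave -2.52 and -0.58 for CNN1, -1.91 and -0.65 for TPM1, -1.46 and -0.26 for MYL9, and -1.34 and -0.13 for TPM2.

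A wider list of 85 genes of the actin cytoskeleton had 44 on the array by name, and MYH11, ACTG2 and LMOD1 were among those without a probe. After serotonin, 41 had a ratio, and 7 of them fell at least 2-fold, against 4.74% of all gene names. None rose that far, against 2.08%, and 38 were below 0, against 48.9%. The median was -0.51, against 0.01. Besides ACTC1 (-2.03) and ACTA1 (-1.94), the 7 were SMTN (-1.79), GSN (-1.29), ACTN4 (-1.04), DSTN (-1.01) and FOS (-1.33). ACTN4 and DSTN lay close to the cutoff. The count of falls was 6 after quantile normalization, against 4.49% of all gene names, and 6 after scaling to the median, against 4.32%. It was 5 after scaling to spike-in controls, against 3.49%. SMTN encodes smoothelin, which is found in contractile smooth muscle, and 4 of its 5 probes fell at least 2-fold. Its level was 4.12 in PIP, 3.77 in pMA, 1.97 after serotonin and 4.22 after TNF-α, so that again the serotonin array alone was low. GSN encodes gelsolin, which cuts actin filaments, DSTN encodes destrin, which takes them apart, and ACTN4 is a second nonmuscle alpha-actinin. Gelsolin fell at least 2-fold at all 3 probes, destrin at 8 of 10 and ACTN4 at its only probe. The destrin probes ranged from -1.19 to -0.90. FOS, an immediate-early target of serum response factor, stood at -0.60 in PIP, 0.76 in pMA, -0.57 after serotonin and -0.01 after TNF-α. It fell at least 2-fold at 3 of 4 probes, which ranged from -1.33 to -0.91. All 8 crosslinker and adhesion genes with a ratio were below 0 after serotonin, from -1.04 to -0.37, but ACTN4 alone passed the cutoff on its representative probe. The myosin light chain MYL6 was at -0.81, and the 5 measured regulators of myosin lay between -0.81 and -0.10.

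**Figure D4:**
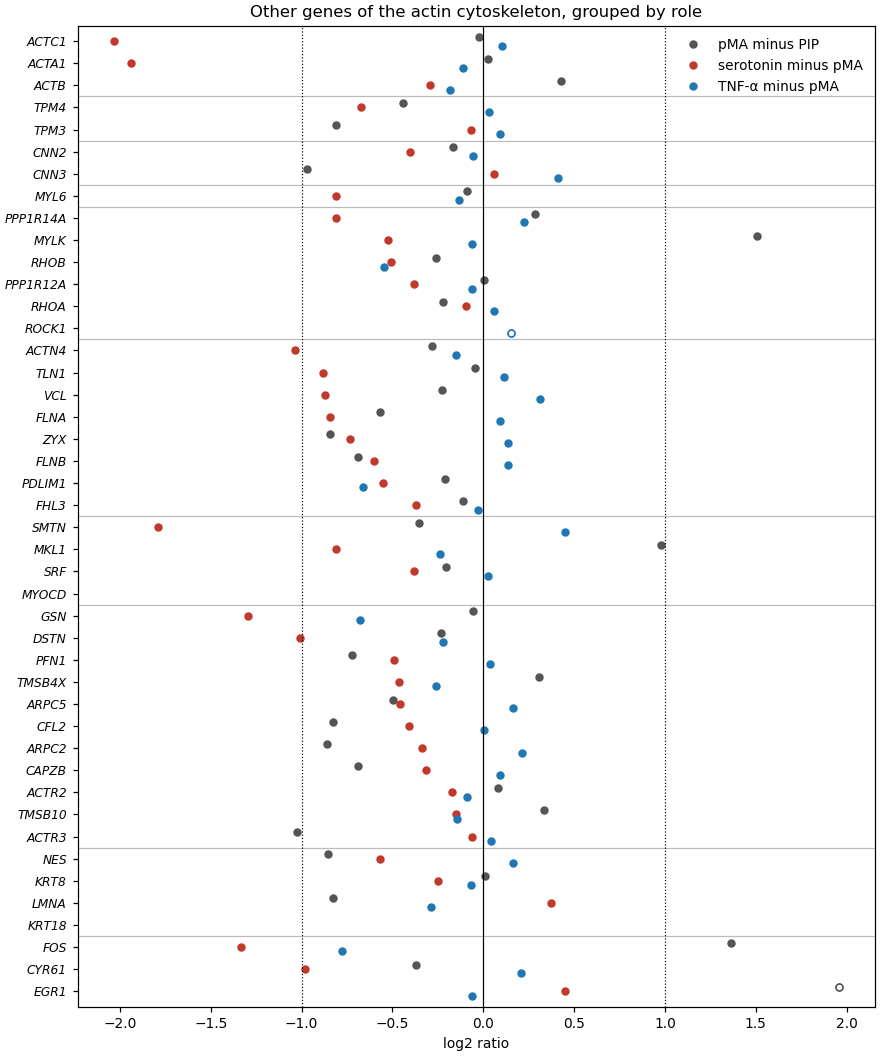
Log2 ratio (x axis) of the 44 genes of the wider list that were on the array, 1 row per gene and 1 point per comparison, grouped by role between the grey lines (from the top: actins, tropomyosins, calponins, myosin, myosin regulators, crosslinkers and adhesion, smooth muscle, actin turnover, intermediate filament, serum response factor and YAP targets). Open circles are lower bounds, and dotted lines mark 2-fold. After serotonin (red) 38 of 41 points lie below 0 and 7 at or beyond -1, and after TNF-α (blue) none passes 2-fold.

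Between pMA and PIP, 41 genes of the wider list had a ratio. Of these 3 rose at least 2-fold, against 9.92% of all gene names, and 1 fell, against 3.56%, so neither count exceeded its share over all gene names. The median was -0.22, against 0.12. After scaling to the median 3 rose, against 4.5%, and 11 fell, against 8.69%. After scaling to spike-in controls 4 rose, against 24.2%, and none fell, against 1.59%. MYLK, the kinase that switches on smooth muscle myosin, rose from -4.40 to -2.89, a log2 ratio of 1.51, with 0.99 at its other probe. Both of these MYLK levels were low, though marked as well above background. FOS rose by 1.36. EGR1, another immediate-early gene, was dim in PIP, and its level in pMA was at least 3.89-fold higher. ACTR3, a subunit of the Arp2/3 complex that branches actin filaments, was at -1.02, and no gene of the list fell at least 2-fold after quantile normalization or scaling to spike-in controls. After TNF-α, 42 genes had a ratio and none passed 2-fold, against 2.21% of all gene names that rose and 1.34% that fell. Of the 42, 20 were below 0, against 49.2%, and the median was 0.02, against 0.01.

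The labels were set against marker genes of the cell types that such cultures could hold. Of 4 smooth muscle markers with a probe, SMTN, CNN1 and DES were well above background on all 4 arrays. MYOCD, encoding myocardin, the cofactor that drives the smooth muscle program, was not well above background on any. Added on the linear scale and then taken as log2, the levels of the 4 came to 7.61 in PIP, 7.57 in pMA, 5.24 after serotonin and 7.14 after TNF-α. CNN1, a member, was the brightest and set most of this value, with 7.41, 7.39, 4.87 and 6.81. All sums below were taken in the same way, so the brightest genes weigh most. SMTN is the only one of the 3 bright genes that is not a member. Of the 13 skeletal muscle markers with a probe, 8 or 9 were well above background. The log2 of their summed levels was 9.32 in PIP, 9.35 in pMA, 7.43 after serotonin and 9.23 after TNF-α. ACTA1 led this sum, with 9.33 in pMA and 7.40 after serotonin on its probe at base 1023. Several ACTA1 probes between bases 1217 and 1415 were dim on both of these arrays, and which message the bright probe reads was not tested. After serotonin PAX7 was at 0.39 and MYOG at -0.01, and the other measured markers lay between -1.94 (ACTA1) and -0.31 (TNNC2). MYOD1, MYF5, MYH2 and MB were at background on every array. Of 8 preadipocyte or fibroblast markers with a probe, 6 to 8 were well above background. The log2 of their summed levels was 8.90 in PIP, 8.88 in pMA, 8.001 after serotonin and 8.56 after TNF-α, so it too was lowest after serotonin. COL1A1 and DCN, which encode matrix proteins of fibroblasts, fell at least 2-fold after serotonin, with -1.41 and -1.16. The other measured markers of this class did not pass the cutoff. COL1A2, the brightest and so the main part of the sum, was at -0.91, THY1 at -0.88 and LUM at -0.28. CD34 gave -0.61, a lower bound of its fall, and PDGFRB was at 0.27. Of 10 adipocyte markers, 7 or 8 were well above background. The log2 of their summed levels was 2.67 in PIP, 4.26 in pMA, 5.46 after serotonin and 4.61 after TNF-α. Single adipocyte markers went both ways after serotonin. LPL, which releases fatty acids from blood lipids, and CD36, which takes them up, rose, with 2.41 and 1.47. PLIN2, a lipid droplet coat protein, was at 0.997, just short of 2-fold. FABP4, a fatty acid carrier, fell from -1.67 to -4.44, a log2 ratio of -2.77, close to the -2.78 of the ACTA2 probe at base 211, and after TNF-α it was 1.45 higher than in pMA. ADIPOQ was not well above background in any pMA group, and PLIN1, which had a probe, was not well above background on any array. The 3 pericyte markers with a probe summed to 1.16, 1.03, 0.38 and 1.76 in the same order of arrays, the 5 endothelial markers to 0.67, 0.21, -1.05 and 0.21, and the 3 macrophage markers to 0.68, 1.10, 0.99 and 1.63. The pericyte sum followed CSPG4, with -0.81 after serotonin, whereas RGS5 was dim in pMA and rose by a log2 ratio of at least 1.71. KCNJ8, CDH5, TEK and CD163 were at background throughout. The 3 markers of cell division summed to 5.32, 4.49, 4.91 and 4.53, a sum led by MKI67. CCNB1, a mitotic cyclin, was at 3.26, -1.65, -2.70 and 0.15, so it was highest in PIP and lowest after serotonin. Its log2 ratio was -4.91 between pMA and PIP, -1.05 after serotonin and 1.80 after TNF-α, while MKI67 and PCNA were at 0.43 and 0.48 after serotonin. The part of a change in cell makeup in the falls after serotonin was not tested.

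The genes most like ACTA2 over the 4 arrays were looked for among 4928 gene symbols well above background on all of them, by the Euclidean distance between log2 profiles centred on their mean. The nearest were E2F1, a regulator of the cell cycle, at a distance of 0.04, MSN, moesin, which ties actin to the cell membrane, at 0.06, and B3GALT1, a sugar transferase, at 0.11. Their log2 ratios after serotonin were -0.88, -0.94 and -0.83, beside -0.88 for ACTA2. These are neighbours of the ACTA2 probe at base 1349, and the probe at base 211 has another profile.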

How the data were processed

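RNA of 4 groups was measured with 1 array each; all lay on 1 slide. The members and gene lists were chosen with earlier results of these data known. The deposited intensity values came from 1-color (Cy3) porcine arrays quantified by the authors with Agilent Feature Extraction 10.7.3.1, which subtracted the background and detrended each array. The methods also name a mouse array and a two-color protocol; the files hold 1 color of a porcine design. The deposited value table holds, as a ratio, each array's processed intensity divided by 1 constant per array, and served as an alternative. The deposited flags (other values, 0 or 1) marked outlier, saturated and well above background spots.

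Control and outlier spots were left out, log2 of the processed intensity was taken minus each array's 75th percentile, and repeated spots were averaged. If only 1 of a pair of arrays was well above background, the other value was raised to at least the lowest signal so marked on its array, which makes the ratio a lower bound. Ratios with both arrays dim were left out. limma, named in the methods, could not be fitted with 1 array per group. Named were all members, wider-list genes at least 2-fold in any comparison, and the 3 genes nearest ACTA2. ACTB, MYL6 and the marker genes named lie outside this rule and were chosen after their values were seen. The ratio rules were tested on simulated data. Python 3.11.15, pandas 2.3.3, numpy 2.4.6, R 4.3.3 and limma 3.58.1 (normexp, quantile) were used. The alternatives were other scalings, background correction, filters, fold cutoffs and ways to represent a gene. The number of arrays limits the precision. Promoters and proteins were not analysed here, and the sequences of some probes are not reported here.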

Additional observations from a re-analysis of the deposited data

How the results depend on the processing

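No paired analysis was possible because each group had 1 array. After serotonin all 9 members were below 0 in every setting tried, and at the 2-fold cutoff 4 to 7 of them fell. After quantile normalization VIM was at -0.10, smaller in size than the 0.19 that repeated spots gave for a ratio. ACTA2 and MYL9 were also closer to no change in that setting, with -0.61 and -1.22. With a 4-fold cutoff 1 of the 9 members passed after serotonin, and with a 1.5-fold cutoff 1 passed after TNF-α. The members' median log2 ratio after serotonin was -1.46 with the median over the probes of a gene, which brings in the upstream probes of ACTA2 and DES. Between pMA and PIP the members' median was -0.33 after scaling to the median and 0.44 after scaling to spike-in controls, together with the median of all gene names. In the wider list, 14 genes passed 2-fold between pMA and PIP after scaling to the median, 15 at a 1.5-fold cutoff and 0 at 4-fold. The corresponding counts after serotonin were 17 at 1.5-fold and 1 at 4-fold, and after TNF-α 3 at 1.5-fold and 1 with no filter on dim probes. No call reversed its direction. The share of promoters with a motif was not run.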
